A study of Arabidopsis thaliana with 6 samples.

Results

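The BCS1-like AAA ATPase genes of Arabidopsis thaliana were examined in shoots of the enolase mutant los2-5 and of the wild type Col-0. They were taken by locus identifier as 10 of the 37051 rows of a table of raw counts: AT3G50930, which encodes the outer mitochondrial membrane protein OM66, 6 genes of the array AT3G28510 to AT3G28610 on chromosome 3, and AT2G18193, AT5G17760 and AT5G40010. The set was proposed with the difference between the genotypes already known, and AT3G28540 was named in it as a strong change. The differences of these 10 genes are therefore given as a description, without a test. Of a further 16 loci of the family in the same table, 4 had enough counts to be tested.

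Whole shoots were collected 2 weeks after germination for 3 los2-5 libraries and 3 Col-0 libraries of 3' RNA-seq. Each library pooled 3 plants, the replicates of a genotype came from different pots, and all plants grew on soil in constant light at 22 °C after 2 days in the cold. LOS2 encodes a cytosolic enolase of glycolysis, and the nature of the los2-5 lesion is not given in the labels. LOS2 itself stood at 119 ± 3.80 CPM in los2-5 and 113 ± 9.15 CPM in Col-0 (CPM on TMM-scaled library sizes, SD, n = 3 each). This 3' tag checks the genotype only if the lesion affects it.

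Library totals ran from 4400433 to 4537653 counts in los2-5 and from 3563033 to 4598645 in Col-0. The 5 shoot markers were abundant in every library. Their summed level was 31900 to 37400 CPM in los2-5 and 52900 to 59800 CPM in Col-0. All 5 were called lower in los2-5 by edgeR, as were 10.6% of all genes tested. The part of these markers in the values below was not tested. Of the 5 root markers, IRT1 and WOX5 had 0 counts, and the list summed to 52.1 to 75.4 CPM in los2-5 and 63.2 to 73.0 CPM in Col-0. Flower markers summed to 0.434 to 1.30 CPM in los2-5 and 0.905 to 2.66 CPM in Col-0, and seed markers to at most 0.215 CPM in either genotype. In whole shoots, a change in the make-up of cells and a change in RNA per cell cannot be told apart.

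AAA ATPases use the energy of ATP to unfold, move or take apart other proteins. The founding member of this family, Bcs1 of yeast, sits in the inner mitochondrial membrane and moves the folded Rieske iron-sulfur protein across it for assembly into the cytochrome bc1 complex. Plants carry many more copies of such genes. OM66 lies instead in the outer mitochondrial membrane and is known in Arabidopsis as a stress-induced gene whose overexpression raises salicylic acid content and cell death.

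The 10 coding sequences had diverged. Over their 45 pairs the nucleotide identity of aligned bases ran from 56.8% (AT3G28540 with OM66) to 87.3% (AT3G28600 with AT3G28610), with a median of 61.7%. AT3G28540 was nearest to its neighbour AT3G28520 (83.4%) and to AT3G28510 (82.1%). AT3G28580, although in the array, was nearest to AT5G40010 on chromosome 5 (80.1%), a gene known as ATPase-in-Seed-Development. OM66 was nearest to its neighbour AT3G50940 (72.9%), and AT2G18193 to its neighbour AT2G18190 (85.5%). In the last 500 bases of their annotated transcripts, all 10 genes had 0% of exact 50-base stretches in common with another annotated transcript. A 3' library reads the end of a transcript. For AT3G28610, annotated as its coding sequence alone (1425 bases), these bases need not be the part read. Over the whole transcript, AT2G18193 had 2.6% of its stretches in common with AT2G18190, and AT3G28540 0.3% with AT3G28560. No listed gene overlapped another annotated gene.

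The 250 bases before the annotated start are shown for 6 of the genes, the array gene with the highest counts, the other array genes with more than 3 counts, an array gene at 0 counts and the genes outside the array whose promoters held the most motifs. They were read 5′ to 3′ on the strand of the gene from RefSeq's TAIR10.1 assembly, and capitals mark 4 motifs on either strand: TTGAC, the core of the W-box bound by WRKY factors; TGACG, bound by TGA factors; and forms of the mitochondrial dysfunction motif bound by NAC factors, in which CTTG and either CAAG or CACG stand 5 bases apart.
AT3G28540, chr3:10693925-10694174, plus strand: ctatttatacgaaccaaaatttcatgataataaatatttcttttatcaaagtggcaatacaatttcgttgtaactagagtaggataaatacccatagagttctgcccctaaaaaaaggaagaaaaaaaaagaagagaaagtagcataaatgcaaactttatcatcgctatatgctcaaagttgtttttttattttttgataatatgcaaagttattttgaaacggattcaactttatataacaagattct
AT3G28510, chr3:10685220-10685469, plus strand: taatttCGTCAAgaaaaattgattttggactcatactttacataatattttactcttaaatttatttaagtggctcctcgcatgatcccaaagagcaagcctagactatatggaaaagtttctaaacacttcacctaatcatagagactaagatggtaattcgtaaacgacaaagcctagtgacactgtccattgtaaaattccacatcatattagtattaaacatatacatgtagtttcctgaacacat
AT3G28580, chr3:10715347-10715596, plus strand: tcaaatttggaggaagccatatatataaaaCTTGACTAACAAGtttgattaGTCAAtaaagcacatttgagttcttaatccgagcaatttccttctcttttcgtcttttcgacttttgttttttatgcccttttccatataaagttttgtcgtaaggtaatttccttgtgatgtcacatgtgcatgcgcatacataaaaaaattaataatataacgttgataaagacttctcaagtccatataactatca
AT3G28610, chr3:10724740-10724989, plus strand: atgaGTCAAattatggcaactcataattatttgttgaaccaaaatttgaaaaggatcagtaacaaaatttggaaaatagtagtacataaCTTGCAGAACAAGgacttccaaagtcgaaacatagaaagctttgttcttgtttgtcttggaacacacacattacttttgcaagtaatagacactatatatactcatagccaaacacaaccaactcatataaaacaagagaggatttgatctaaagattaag
AT3G50930 (OM66), chr3:18929276-18929525, plus strand: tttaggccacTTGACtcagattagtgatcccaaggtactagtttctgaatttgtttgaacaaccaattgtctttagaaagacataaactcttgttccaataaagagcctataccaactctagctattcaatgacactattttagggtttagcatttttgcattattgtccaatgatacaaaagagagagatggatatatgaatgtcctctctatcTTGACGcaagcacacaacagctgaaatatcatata
AT2G18193, chr2:7919346-7919595, minus strand: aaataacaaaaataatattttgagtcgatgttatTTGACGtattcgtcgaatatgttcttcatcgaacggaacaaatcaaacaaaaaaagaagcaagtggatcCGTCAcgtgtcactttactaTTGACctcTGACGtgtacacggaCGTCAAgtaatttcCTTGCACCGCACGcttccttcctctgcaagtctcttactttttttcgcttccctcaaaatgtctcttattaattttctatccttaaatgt

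Of all 27443 promoter windows of this length, 44.9% held TTGAC, 18.6% TGACG, 0.7% the CAAG form and 0.5% the CACG form. Among the listed genes TTGAC was in 7 of 10 windows, TGACG in 3, the CAAG form in 2 and the CACG form in 1. Among the other 16 family loci these counts were 5, 1, 0 and 0. The window of AT2G18193 held 3 TTGAC and 4 TGACG matches, some of them overlapping, where 3.38% of all windows held at least 3 of TTGAC and 0.58% at least 3 of TGACG. The window of AT3G28540 held none of the 4 motifs. Its nearest TTGAC began 291 bases before the start and overlapped a TGACG. AT3G28610, at 0 counts, held a CAAG form match that began 161 bases before its start, and AT3G28580 held another at 220 bases, overlapping a TTGAC. The annotated transcript of AT3G28610 is as long as its coding sequence (1425 bases), while that of AT3G28580 is longer (1797 against 1503). These distances may thus be measured from unlike points. AT3G28600, also at 0 counts, held none of the 4 motifs in its window. A match is a description of the letters in the window.

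Counts were concentrated in a few members. Of the 10 genes, 7 had more than 3 counts over the 6 libraries, AT3G28570 had 1 and AT3G28600 and AT3G28610 had 0. In these 7 genes every los2-5 library lay above every Col-0 library, as it did for 18.7% of all genes tested. AT3G28510, AT2G18193 and AT5G40010 are among the 7 but not among the genes tested. Nothing is read from this count either, since the set was chosen on this contrast. With 0 counts in all libraries, counting error alone allows a level of up to 0.116 CPM for each of AT3G28600 and AT3G28610. The annotated transcript of AT3G28610 is its coding sequence alone (1425 bases). Any 3' reads past that end may not have been counted, and the limit does not cover them. Only AT3G28540, AT3G28580, AT3G50930 and AT5G17760 passed the filter on low counts, and genes that are low in Col-0 could pass it through their los2-5 libraries alone. Each of these 4 was called higher by the edgeR quasi-likelihood test, as were 9.92% of all 13952 genes tested (20.5% in either direction), and nothing is read from that count because the set was chosen on this contrast.

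AT3G28540, an array gene of no assigned function in the reference, had the highest level of the set in both genotypes. Its libraries stood at 109, 186 and 160 CPM in los2-5, against 19.5, 22.6 and 20.1 CPM in Col-0. All los2-5 libraries lay far above all Col-0 libraries, whose own spread was small. The means were 152 ± 39.2 CPM in los2-5 and 20.7 ± 1.65 CPM in Col-0 (SD, n = 3 each), a log2 fold change of 2.87 ± 0.18 (SE), or 7.29-fold. This value held rank 71 from the top among the genes tested. Per kilobase of transcript, which need not apply to 3' reads, AT3G28540 averaged 73.0 CPM in los2-5 and 9.99 CPM in Col-0, above every other member in every library.

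AT3G28580 lies further along the same array. It had 7.34, 7.73 and 11.7 CPM in los2-5, against 1.18, 0.983 and 0.905 CPM in Col-0, where each library held 4 counts. The genotypes did not overlap, and the highest los2-5 library was replicate 3. The log2 fold change was 3.11 ± 0.37, at rank 54. AT3G28510, at the head of the array, had 1.73, 9.67 and 8.47 CPM in los2-5, against 0.590, 0.737 and 0 CPM in Col-0. Its los2-5 replicate 1 was much nearer to Col-0 than to replicates 2 and 3. It did not pass the filter. Summed over libraries it had 92 counts in los2-5 and 5 in Col-0, a ratio per effective library size of 15.7, with an exact 95% interval of 6.50 to 49.6. Such intervals cover counting error alone. The ratio was 25.9 without Col-0 replicate 2 and 9.88 without Col-0 replicate 3, so that it rests on very few Col-0 counts.

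OM66 (AT3G50930) had 8.20, 14.6 and 12.6 CPM in los2-5, against 2.36, 3.93 and 1.13 CPM in Col-0. The los2-5 libraries all lay above the Col-0 libraries, and both genotypes varied widely. The log2 fold change was 2.26 ± 0.34, at rank 130. It ran from 1.86 without Col-0 replicate 3 to 2.79 without Col-0 replicate 2. OM66 is known to be expressed in ageing leaves. The late senescence marker SAG12 had 0 counts in all libraries, while SAG13 had 31.2 ± 18.0 CPM in los2-5 and 3.55 ± 4.39 CPM in Col-0 (log2 fold change 3.03 ± 0.89, adjusted p = 0.088, edgeR). The 2 markers together summed to 19.1 to 51.9 CPM in los2-5 and 0.590 to 8.59 CPM in Col-0, and their part in the values of the family was not tested.

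**Figure D1:**
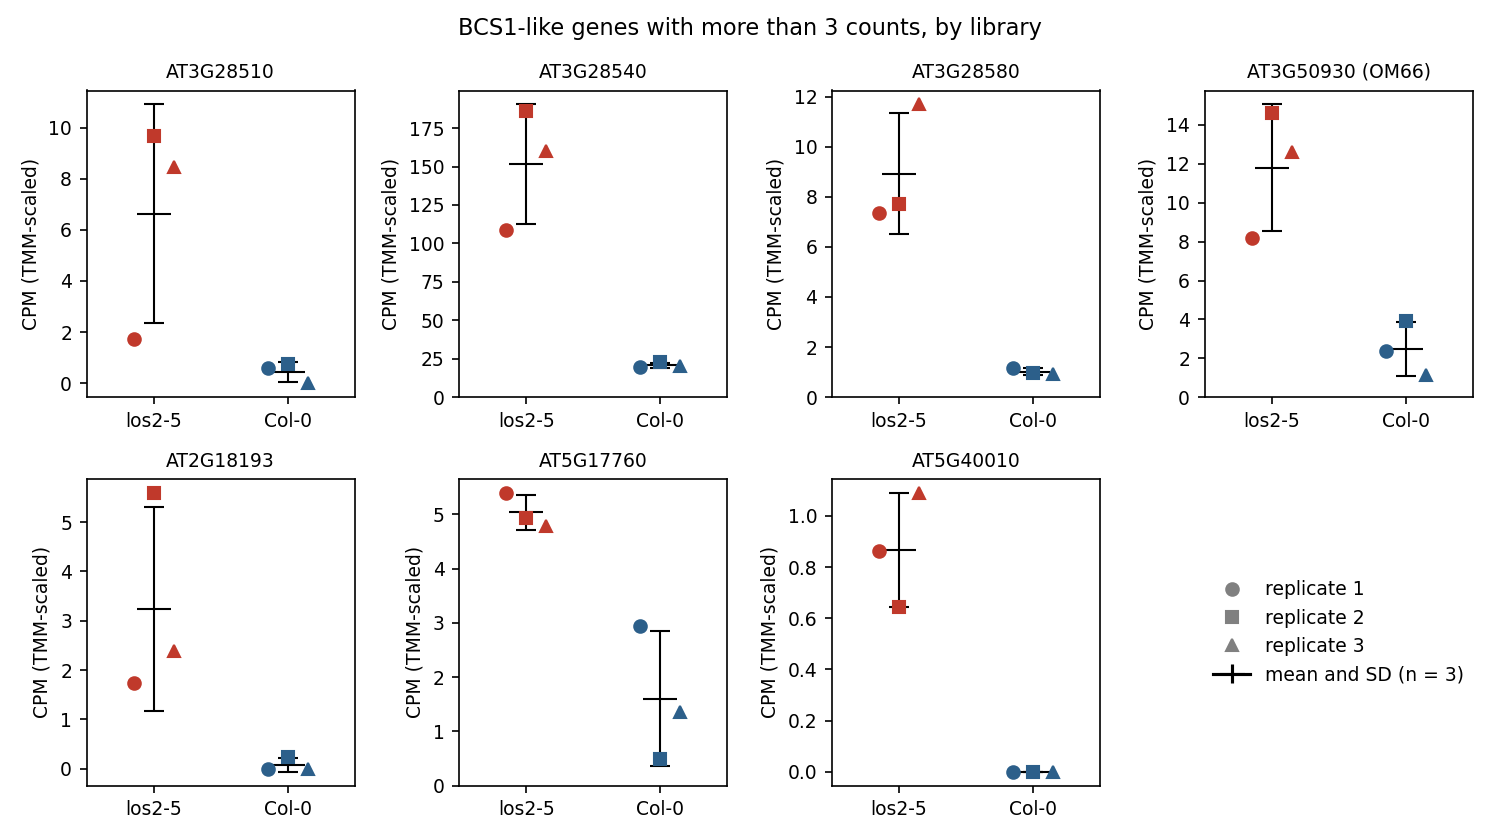
Level of the 7 listed genes with more than 3 counts in each of the 6 libraries (vertical axes: CPM on TMM-scaled library sizes, a scale of its own per gene), with los2-5 left of Col-0, a symbol per replicate, and bars for mean and SD. In all 7 panels the lowest los2-5 library lies above the highest Col-0 library, and los2-5 replicate 1 is the lowest los2-5 library in 5 of them.

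AT5G17760, at the end of a group of 4 family loci on chromosome 5, had 5.40, 4.94 and 4.78 CPM in los2-5, against 2.95, 0.491 and 1.36 CPM in Col-0. Its los2-5 libraries were close together, and the Col-0 libraries were spread over a wide range. The log2 fold change was 1.71 ± 0.41, at rank 220, and it was 2.38 without Col-0 replicate 1 and 1.27 without Col-0 replicate 2.

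AT2G18193 and AT5G40010 were nearly or wholly without counts in Col-0. AT2G18193 had 8, 26 and 11 counts in los2-5, against 0, 1 and 0 in Col-0. The ratio was 38.5, with an exact 95% interval of 6.56 to 1550, and without Col-0 replicate 2, which held the 1 count, Col-0 had 0. It was 24.4 without los2-5 replicate 2 and 24.2 without Col-0 replicate 3. AT5G40010, the gene named for its role in seed development, had 4, 3 and 5 counts in los2-5 and 0 in each Col-0 library. Against a floor of 3 counts over the Col-0 group it was at least 3.42-fold higher in los2-5. AT3G28570 had its 1 count in los2-5 replicate 3, which gives no fold.

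The members differed in how they varied across the los2-5 libraries. AT3G28540, OM66, AT3G28510 and AT2G18193 had the same order, with replicate 2 highest, replicate 3 next and replicate 1 lowest, and AT3G28580 was highest in replicate 3. Replicate 1 was the lowest los2-5 library for AT3G28510, AT3G28540, AT3G28580, AT3G50930 and AT2G18193, but the highest for AT5G17760. Among the 7 genes with more than 3 counts in los2-5 it was lowest in 5 (71.4%), beside 829 of the 1384 genes called higher over the whole table (59.9%). On the first principal component of all genes, which held 58.5% of the variance, los2-5 replicates 1 to 3 lay at 20.8, 38.8 and 40.3 and Col-0 replicates 1 to 3 at -34.5, -29.5 and -35.8. Without los2-5 replicate 1 the log2 fold changes were 3.05 for AT3G28540, 3.23 for AT3G28580, 2.46 for OM66 and 1.65 for AT5G17760, and the count ratio of AT3G28510 was 21.6.

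**Figure D2:**
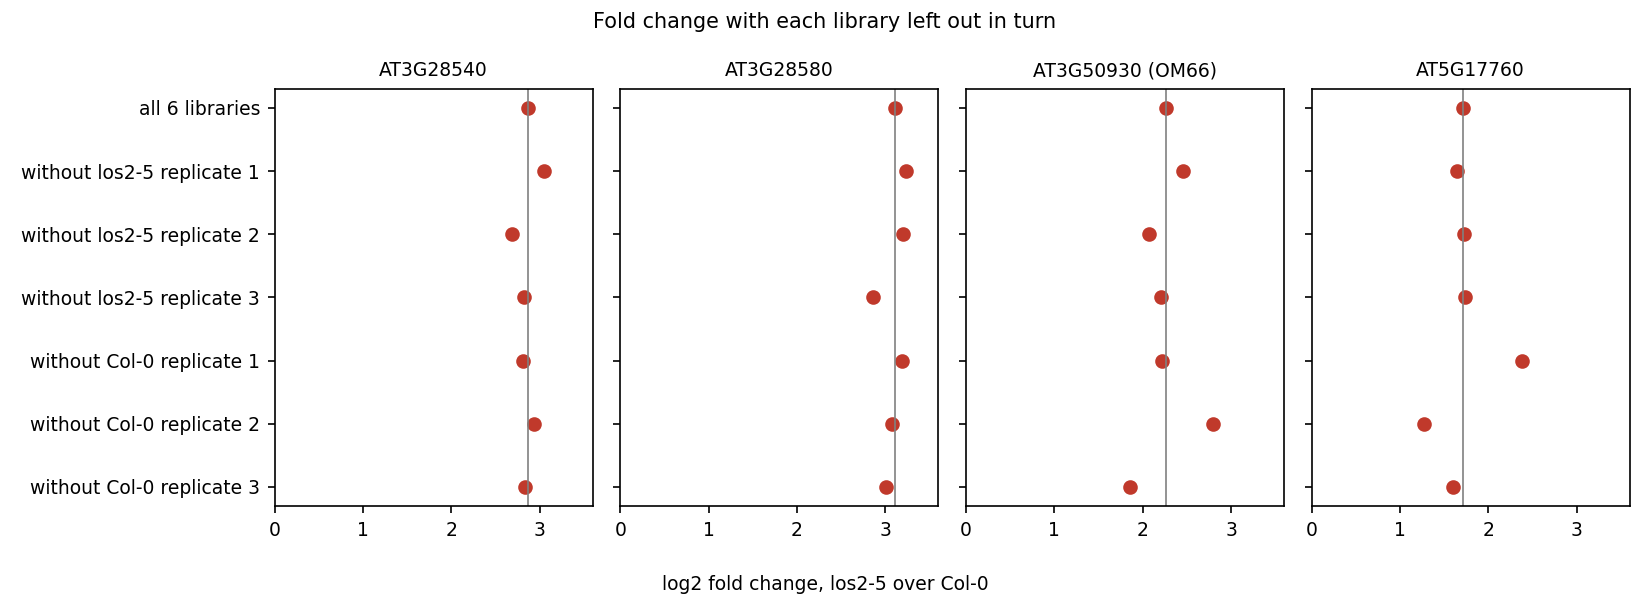
Log2 fold change of los2-5 over Col-0 (horizontal axis, edgeR) for the 4 listed genes that passed the filter, with all 6 libraries and with each library left out in turn (vertical axis); the grey line marks the value with all libraries. AT3G28540 stays between 2.69 and 3.05 and AT3G28580 between 2.86 and 3.23, while OM66 ranges from 1.86 to 2.79 and AT5G17760 from 1.27 to 2.38.

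Along the chromosome 3 array, AT3G28510, AT3G28540 and AT3G28580 had counts in numbers and lay apart, with family loci at or near 0 between them and after the last. The array spans 8 family loci, of which 6 are listed, all on the plus strand and interspersed with other loci. From the start of AT3G28510, AT3G28520 lies 2.9 kb away, AT3G28540 8.7 kb, AT3G28560 21.6 kb, AT3G28570 24.9 kb, AT3G28580 30.1 kb, AT3G28600 36.9 kb and AT3G28610 39.5 kb. AT3G28520, the locus closest in sequence to AT3G28540, had 0 counts in all libraries, and AT3G28560 had 0 counts in los2-5 and 1 in Col-0. By counts, AT3G28540 thus stood between family loci at or near 0. In the TAIR10.1 annotation, the transcripts of AT3G28520 (1437 bases) and AT3G28610 (1425 bases) hold no bases beyond the coding sequence. If the counting used the same ends, 3' reads past them would be missed, so these 0 counts need not mean that the genes are silent. This was not tested.

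The loci around the array that do not belong to the family were taken by number, from AT3G28450 to AT3G28670. Of these 18 loci, 6 were tested, 0 were called higher and 1 was called lower by edgeR, with 0 and 1 where p was left unadjusted at 0.05. By DESeq2 the counts were 0 and 0, by limma-voom 0 and 1. Among all genes tested, 9.92% were higher and 10.6% lower by edgeR. The neighbours had a median log2 fold change of 0.21, and all genes one of 0.02. The called locus was AT3G28650, which encodes a cysteine- and histidine-rich C1 domain protein. It had 2.37, 0.645 and 2.39 CPM in los2-5, against 4.13, 4.42 and 3.39 CPM in Col-0. Its log2 fold change was -1.13 ± 0.40 with an adjusted p of 0.049 (edgeR), and in 6 of 12 alternatives this p exceeded 0.05 (lowest 0.033, highest 0.22). Its los2-5 libraries held 11, 3 and 11 counts, the second under the minimum of 10. Passing the filter thus rested in part on Col-0, where AT3G28650 was higher, and nothing is read from its call. Of the non-family loci inside the array, AT3G28530 and AT3G28590 had 0 counts and the extensin-like gene AT3G28550 had 1.

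**Figure D3:**
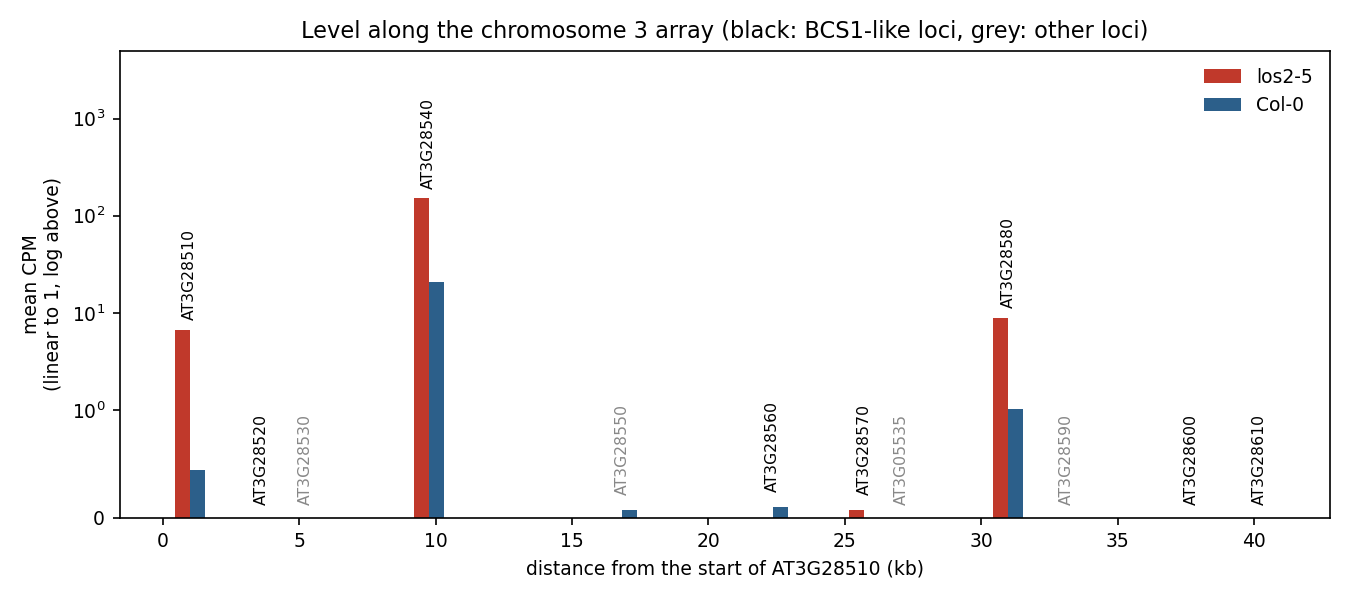
Mean level in los2-5 (left bars) and Col-0 (right bars) of every locus of the table between AT3G28510 and AT3G28610, placed by distance from the start of AT3G28510 in kb (horizontal axis); the vertical axis is mean CPM, linear up to 1 and logarithmic above. AT3G28510, AT3G28540 and AT3G28580 stand out in los2-5, with 6.62, 152 and 8.93 CPM. In Col-0 they have 0.442, 20.7 and 1.02 CPM, where AT3G28510 holds 5 counts and AT3G28580 holds 12. The other loci lie near or at 0 in both genotypes.

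At the other groups of neighbouring copies, the listed gene had the most counts of its group. Nothing is read from this, since the listed genes were chosen with earlier results of these data known. AT2G18190, beside AT2G18193, had 5 counts in los2-5 and 2 in Col-0. AT3G50940, beside OM66, had 0 counts in los2-5 and 1 in Col-0. AT5G17730, AT5G17740 and AT5G17750, beside AT5G17760, had 0 counts in all libraries. Their annotated transcripts also hold no bases beyond the coding sequence, so 3' reads past their ends may not have been counted. AT5G40000, the neighbour of AT5G40010, had 2 counts in los2-5 and 0 in Col-0.

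In the family outside the list, AT1G43910 was higher in los2-5. Of the 16 loci, 7 had 0 counts in all libraries and 4 were tested, of which edgeR called 2 higher and 0 lower (2 and 0 where p was left unadjusted at 0.05), beside 9.92% and 10.6% of all genes. DESeq2 and limma-voom each called 1 higher and 0 lower. AT1G43910 had 7.56, 6.45 and 6.08 CPM in los2-5, against 1.18, 0.983 and 2.04 CPM in Col-0. The genotypes did not overlap, and the log2 fold change was 2.21 ± 0.35 (adjusted p = 1e-04, edgeR), with an adjusted p of 2e-07 to 0.0013 over 12 alternatives. Its Col-0 libraries held 4, 4 and 9 counts, under the minimum of 10, so it passed the filter on low counts through los2-5 alone, where it was high, and its call is no support for the family. It overlaps AT1G43900 on the opposite strand, which was lower in los2-5 (10.8, 10.3 and 8.68 CPM, against 16.2, 13.0 and 15.6 CPM in Col-0; log2 fold change -0.59 ± 0.20, adjusted p = 0.039, edgeR). The strand setting of the counting is unknown, so reads of this pair may not be separated.

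AT4G25835 was the other locus called. It had 6.48, 8.59 and 6.30 CPM in los2-5, against 5.02, 3.19 and 4.30 CPM in Col-0, a log2 fold change of 0.78 ± 0.28. Its adjusted p was 0.05 in edgeR, and it was above 0.05 in 11 of 12 alternatives, up to 0.19. AT2G46620 (0.40 ± 0.21, adjusted p = 0.18, edgeR) and AT4G30250 (0.14 ± 0.43, adjusted p = 0.85, edgeR) were not called, and their libraries overlapped between the genotypes. AT5G57480, too low to be tested, had 20 counts in los2-5 and 6 in Col-0, a ratio of 2.85 with an exact 95% interval of 1.10 to 8.67.

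Summed over all 26 family loci in the table, the level was 225 ± 49.3 CPM in los2-5 and 49.5 ± 2.90 CPM in Col-0 (SD, n = 3 each). AT3G28540 made up 63.8%, 69.8% and 67.0% of these counts in los2-5, against 37.3%, 48.7% and 40.5% in Col-0. Divided by transcript length the shares were 63.2% to 69.7% in los2-5 and 37.4% to 49.4% in Col-0. The sum without AT3G28540 was 73.6 ± 10.3 CPM in los2-5 and 28.7 ± 4.52 CPM in Col-0. These sums hold the listed genes and carry no test.

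Genes that respond to mitochondrial dysfunction, to which OM66 belongs in Arabidopsis, were compared as a list of 18 without OM66. EdgeR tested 11 of them and called 5 higher and 0 lower, or 5 and 1 where p was left unadjusted at 0.05. Both DESeq2 and limma-voom gave 5 higher and 0 lower. Its log2 fold changes had a median of 0.43, against 0.02 over all genes tested, of which 9.92% were called higher. The regulators NAC13 and NAC017 were at 0.36 ± 0.37 and -0.26 ± 0.17 and were not called.

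AT5G51440, a small heat shock protein gene, had 6.69, 6.45 and 6.95 CPM in los2-5, against 0.885, 1.72 and 1.13 CPM in Col-0, and rose by 2.38 ± 0.35 (adjusted p = 4.1e-05, edgeR). With 3, 7 and 5 counts in Col-0, it too passed the filter through los2-5 alone, so its call adds no support to the list's count. NDB2, an alternative NAD(P)H dehydrogenase of the respiratory chain, had 6.04, 9.67 and 12.6 CPM in los2-5, against 2.07, 2.46 and 4.30 CPM in Col-0, and rose by 1.64 ± 0.33 (adjusted p = 0.001, edgeR). Its Col-0 libraries held 7, 10 and 19 counts, the first under the minimum of 10. Passing the filter thus rested in part on los2-5, where NDB2 was high, and its call also adds no support to the list's count. AOX1A, the alternative oxidase, had 15.8, 17.4 and 26.7 CPM in los2-5, against 8.85, 7.86 and 12.4 CPM in Col-0, and rose by 1.02 ± 0.23 (adjusted p = 0.0027, edgeR). In each of these 3 genes every los2-5 library lay above every Col-0 library, as it did for 18.7% of all genes tested. Nothing is read from this, since the 3 were named as calls with small p. The transcription factor gene NAC053 rose by 1.16 ± 0.31 (adjusted p = 0.011, edgeR), although its adjusted p was 0.08 without los2-5 replicate 3. RCD1, a protein that binds NAC factors and the remaining call, named after its values were seen, was at 0.46 ± 0.13, with an adjusted p above 0.05 in 4 of 13 alternatives. Among members not called, AT2G21640, a marker of oxidative stress, was at -0.14 ± 0.29, and SOT12, a sulfotransferase, at -0.51 ± 0.22. The libraries of RCD1 overlapped between the genotypes. In SOT12 and NAC017 every los2-5 library lay below every Col-0 library, as in 18.6% of all genes tested. AOX1D, another alternative oxidase, was too low to be tested, with 6, 5 and 26 counts in los2-5 and 0, 0 and 2 in Col-0. Its ratio was 15.8 (exact 95% interval 4.08 to 135), it was 7.04 without los2-5 replicate 3 and 10.4 without Col-0 replicate 2, and Col-0 had 0 counts without Col-0 replicate 3.

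Genes for the cytochrome bc1 complex, which Bcs1 serves in yeast, lay on both sides of 0. Of 15 genes 14 were tested. EdgeR called 1 higher and 1 lower and left 12 not called, beside 9.92% higher and 10.6% lower among all genes tested. Where p was left unadjusted at 0.05, edgeR gave 1 higher and 3 lower. DESeq2 called 1 and 0 and limma-voom 1 and 1, and the median log2 fold change was -0.01. The Rieske iron-sulfur subunit genes AT5G13430 and AT5G13440 were at 0.25 ± 0.14 and 0.17 ± 0.14 and were not called. AT1G15120, a hinge subunit gene, had 248, 282 and 298 CPM in los2-5, against 235, 193 and 187 CPM in Col-0 (log2 fold change 0.43 ± 0.13, adjusted p = 0.017, edgeR). AT5G40810, a cytochrome c1 gene, had 23.7, 15.9 and 18.5 CPM in los2-5, against 28.3, 30.2 and 24.6 CPM in Col-0 (-0.52 ± 0.18, adjusted p = 0.042, edgeR). Neither call held throughout: the adjusted p was above 0.05 in 3 of 13 alternatives for AT1G15120 and in 7 of 13 for AT5G40810. The gene not tested, AT5G25450, annotated as a small ubiquinol oxidase subunit, had 5, 10 and 13 counts in los2-5, against 2, 1 and 1 in Col-0. Its ratio was 5.99, with an exact 95% interval of 2.09 to 23.5.

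Other AAA proteins of plant mitochondria and plastids were represented by 4 FtsH protease genes, all tested. EdgeR called 0 higher and 0 lower, beside 9.92% and 10.6% of all genes tested. Where p was left unadjusted at 0.05 it gave 1 and 0, and DESeq2 and limma-voom called 0 as well. FTSH4, a protease of the inner mitochondrial membrane, was at 0.33 ± 0.13 and FTSH11 at 0.41 ± 0.25. FTSH3 and FTSH10 were at -0.09 ± 0.15 and -0.07 ± 0.29.

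**Figure D4:**
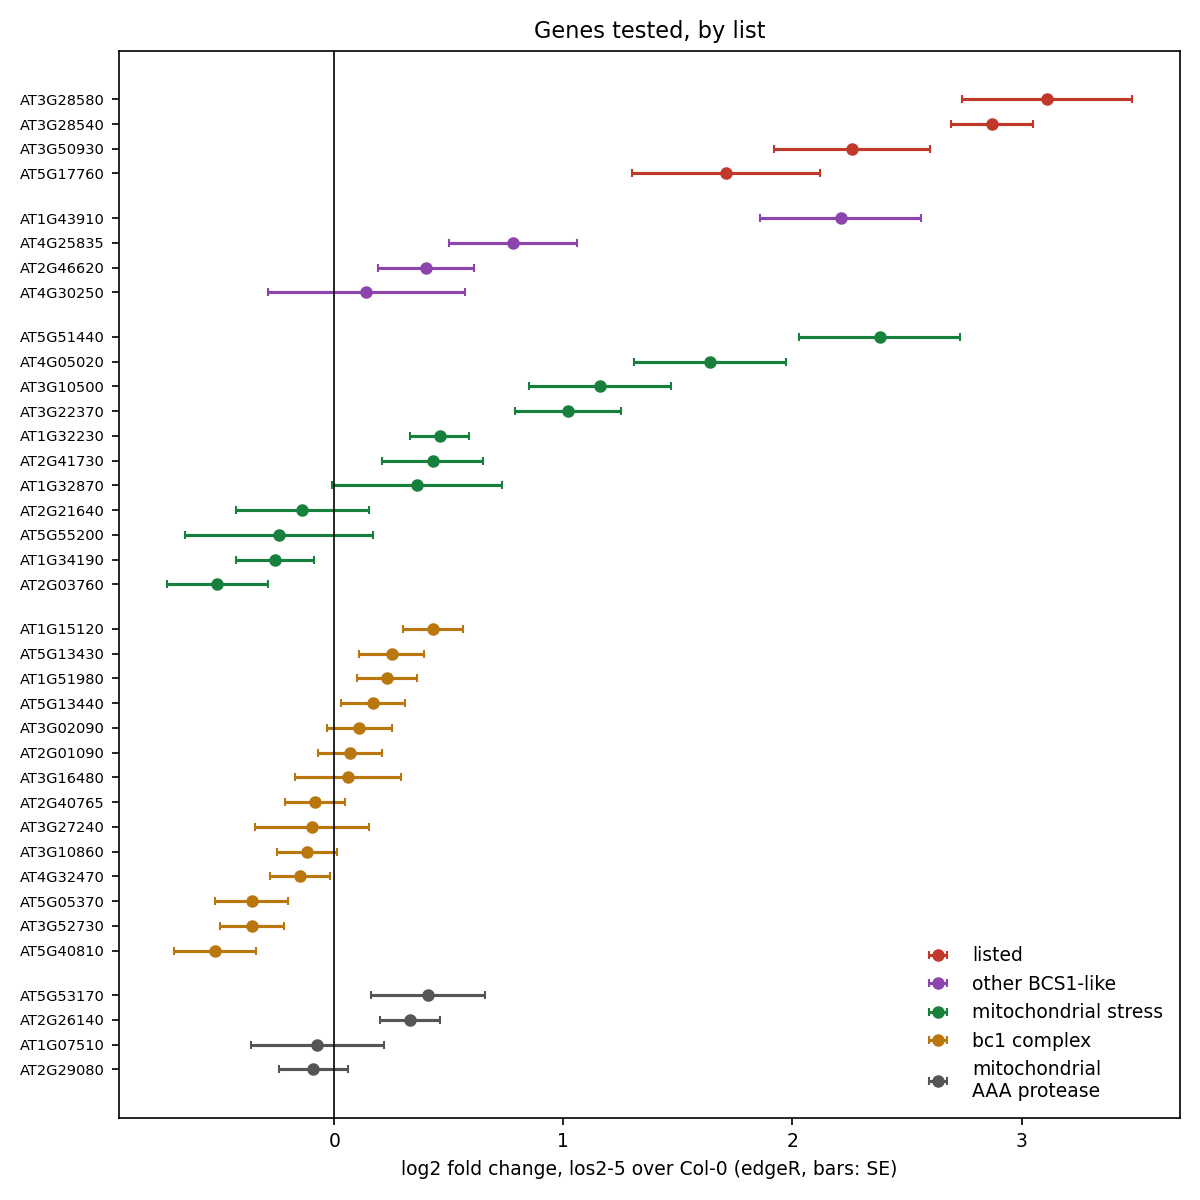
Log2 fold change of los2-5 over Col-0 (horizontal axis, edgeR; bars give the SE) of every tested gene of the listed set, the other BCS1-like loci, the mitochondrial stress list, the bc1 complex and the FtsH proteases (rows). The listed genes, chosen on this contrast, lie between 1.71 and 3.11, and the bc1 complex genes lie on both sides of 0, between -0.52 and 0.43.

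Genes whose levels followed those of AT3G28540 most closely were sought among 10741 genes averaging 5 CPM or more. RHD3, a GTP-binding protein that shapes the endoplasmic reticulum, and WRKY46, a transcription factor of plant immunity, each had a Pearson correlation of 0.998 with AT3G28540 in log2 CPM over the 6 libraries, and RS41, a splicing factor, had 0.997. The size of the difference varied among them: the log2 fold change was 0.69 ± 0.13 for RHD3, 3.08 ± 0.23 for WRKY46 and 0.43 ± 0.12 for RS41. For OM66 the closest were AT2G03510, a membrane protein gene of the SPFH type, at 0.996, the cell wall invertase-like gene cwINV6 at 0.995 and AT5G22520, an uncharacterised gene, at 0.993. The points share their libraries and fall in 2 genotypes, and 821 genes had a correlation above 0.9 with AT3G28540 and 565 with OM66, so that the ranking is a description.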

How the data were processed

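Per the labels' protocols, total RNA of whole shoots was sequenced as 3' RNA-seq. The authors deposited raw counts of reads per gene, 1 column per library, which entered the tests unchanged. STAR, edgeR and TAIR10 are named in the submitters' processing notes. No source used here gives the counting tool, annotation or strand setting.

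Genes were kept with filterByExpr (minimum count 10, total 15), which left 13952 of 37051, and TMM scaling was applied. EdgeR 4.0.16 in R 4.3.3 gave quasi-likelihood tests of genotype, adjusted over these genes by Benjamini-Hochberg, with calls at 0.05. Standard errors are the absolute log2 fold change over the square root of F. Fold changes are los2-5 over Col-0. Alternatives used limma 3.58.1 (limma-voom), DESeq2 1.42.0, other scalings and filters, a replicate block and each library left out. The replicates, pools from different pots, differed by more than sampling noise (chi-square per gene 3.23 to 8.14). The code was tested on simulated data.

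Members and lists were chosen with earlier results of these data known. The named genes were the members, the tested family loci, up to 4 called genes of each list with the smallest p (all where at most 5 were tested), and the 3 genes most correlated with AT3G28540 and with OM66. NAC13, NAC017, AT2G21640, SOT12, RCD1, AOX1D, AT5G13430, AT5G13440, AT5G25450 and AT1G43900 fall outside that rule and were chosen after their values were seen. Locus identifiers were looked up in the TAIR10.1 RefSeq annotation. The count table holds no coordinates, and those printed are of TAIR10.1. Coding sequences of at least 1000 bases were aligned globally in pairs. No paired value is given beside the results, since replicate numbers did not pair the libraries.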

Additional observations from a re-analysis of the deposited data

How the results depend on the processing

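The log2 fold changes of AT3G28540, AT3G28580 and OM66 moved by less than 1 SD between replicates under all 13 alternatives, and that of AT5G17760 under all but 1 of 12 (2.38 without Col-0 replicate 1). With library size alone the median of all genes shifted by 0.12 and 2179 genes were called higher, 989 lower, 0 bc1 complex genes lower, 0 chromosome 3 neighbours lower and 1 FtsH gene higher. With each library left out in turn, the whole table had 831 to 1537 genes called higher, 927 to 1606 lower and 1758 to 3143 in all, the lowest values being those without Col-0 replicate 3. Over the same fits, 1 of the other BCS1-like loci was called higher throughout, the mitochondrial stress list had 3 to 6 higher, the bc1 complex 0 to 2 higher and 0 to 3 lower, and the chromosome 3 neighbours 0 to 1 lower. Of the other BCS1-like loci, 1 was called higher with median-of-ratios size factors, no filter, DESeq2, limma-voom or the replicate block, and 0 with a minimum count of 30, where 1 was tested. That minimum also gave 3 mitochondrial stress genes and 1 FtsH gene higher and 0 neighbours lower, with fewer genes tested. No filter gave 2 bc1 genes higher, and DESeq2 gave 0 bc1 genes and 0 neighbours lower. With the replicate block 3115 genes were called over the whole table and 2 bc1 genes lower. Same-numbered libraries did not deviate together (correlations 0.05, 0 and -0.05), so the numbers do not pair them. Where no other reason is given, the cause of these changes was not tested. Counts below about 10 per library limit the values of AT3G28510, AT2G18193 and AT5G40010. In some or all Col-0 libraries they also limit those of AT3G28580, OM66 and AT5G17760.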
